A study of Mus musculus with 8 samples.

Results

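38 genes of the DNA replication machinery were followed in the small intestinal mesenchyme of the mouse, the muscle, nerve, vessel and connective tissue that lies under the gut epithelium. They were chosen by name, for their part in copying DNA, and all 38 were found among the 46635 loci of the deposited table. The study compared wild-type mice at 2 ages, fetuses at embryonic stage E17.5 (given as E17 in the age label) and pups at postnatal day 14 (P14), with 4 RNA-seq libraries each. EDTA was used to take the epithelium off the gut, TRIzol to extract RNA from what was left, and an NEBNext Ultra kit to build the libraries. No transgene, deletion or drug enters either group. A replicate may be 1 animal or several pooled, since the labels do not say. The p-values therefore set the difference between the ages against the spread among these libraries only, and that spread may be technical.

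A cell copies its genome once per division, in S phase. Before that, CDC6 and CDT1 load the ring of MCM2 to MCM7 onto origins of replication, and CDC45 and the GINS complex later join the ring to make the helicase that unwinds the double helix. Polymerases then copy both strands, held to the DNA by the sliding clamp PCNA, while ribonucleotide reductase supplies the building blocks. Most genes of this machinery are known targets of the E2F transcription factors, which cyclin E and its kinase release at the entry to S phase, and their transcripts are therefore widely used as a sign of dividing cells. The gut wall grows in length both before and after birth.

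Levels are given in FPKM, a read count corrected for how long the gene is and how deep the library, which puts long and short genes on one scale. Between 16660998 and 19496632 reads were assigned to genes per E17.5 library and between 17702122 and 18474346 per P14 library, and a member gene had 60 to 3931 reads in a library. P14 replicate 1 stood apart from the other P14 libraries. Its 12 pan-epithelial markers summed to 5016 FPKM, against 127, 695 and 247 in P14 replicates 2, 3 and 4 and 32.04 to 53.6 at E17.5, and the authors' scaling set its effective library size at 0.78 of its assigned reads, against 1.02 to 1.06 in the other 7 libraries. Counts of called genes in the members, roles and lists are therefore given with all 8 libraries and again without P14 replicate 1. Of the marker lists used to check the tissue, smooth muscle and fibroblast genes were present in every library, at summed levels of 4732 to 5198 and 2265 to 2512 FPKM at E17.5 and of 2722 to 10580 and 915 to 2571 FPKM at P14. Tagln of the smooth muscle list was an exception, at only 0.22 to 1.19 FPKM over all 8 libraries. Pi16 of the fibroblast list was at 0.45 to 2.78 FPKM, and neither gene was tested.

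Replication transcripts were at lower levels at P14 than at E17.5. 15 of the 38 members fell from E17.5 to P14 and 0 rose, with limma on log2(FPKM + 1) and a Benjamini-Hochberg adjusted p under 0.05 over all 14044 tested genes. The share of all tested genes called lower was 15.0%, against 39.5% of the members, and 9.72% were called higher. No member was higher at an unadjusted p under 0.05, by limma or by limma voom on recovered reads (0 in both), and 24 were lower at that level by limma. The members' median log2 change was -0.52, against 0.002 over all tested genes, and 37 of the 38 changes were below 0. In 24 members every P14 library lay below every E17.5 library, which held for 20.4% of tested genes.

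Without P14 replicate 1, 24 members were called lower, among them all 15 called with it, and 0 higher (0 at an unadjusted p under 0.05 by limma or voom). The background rose as well, to 26.9% of tested genes called lower and 22.6% called higher, against 63.2% of the members called lower. The members' median change was then -0.38, against -0.025 over all tested genes, and the P14 libraries lay below the E17.5 libraries in 26 members, against 29.7% of tested genes. Leaving out a single fetal library left 10, 9, 8 and 10 members called (replicates 1 to 4 in turn), and leaving out replicate 2, 3 or 4 of P14 left 16, 10 and 13. Over all tested genes, lower calls also dropped, from 2108 to 1477, 1288, 1118 and 1278 without each fetal library in turn. They were 1812, 1418 and 1499 without P14 replicate 2, 3 or 4. The count of members was 10 with no filter on low values and 9 with voom on recovered reads. Over all genes those fits gave 1571 (of 31574) and 2114 lower calls. The 8 genes called whichever single library was left out were Mcm3, Mcm6, Mcm10, Rfc4, Exo1, Blm, Slbp and Ccne2. Rescaling to TPM, where every library sums to the same total, moved the median change of all tested genes by -0.18, and relative to that median the members' median was -0.55, against -0.53 on the FPKM scale. In bulk tissue a smaller share of dividing cells and less RNA per cell cannot be told apart.

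**Figure D1:**
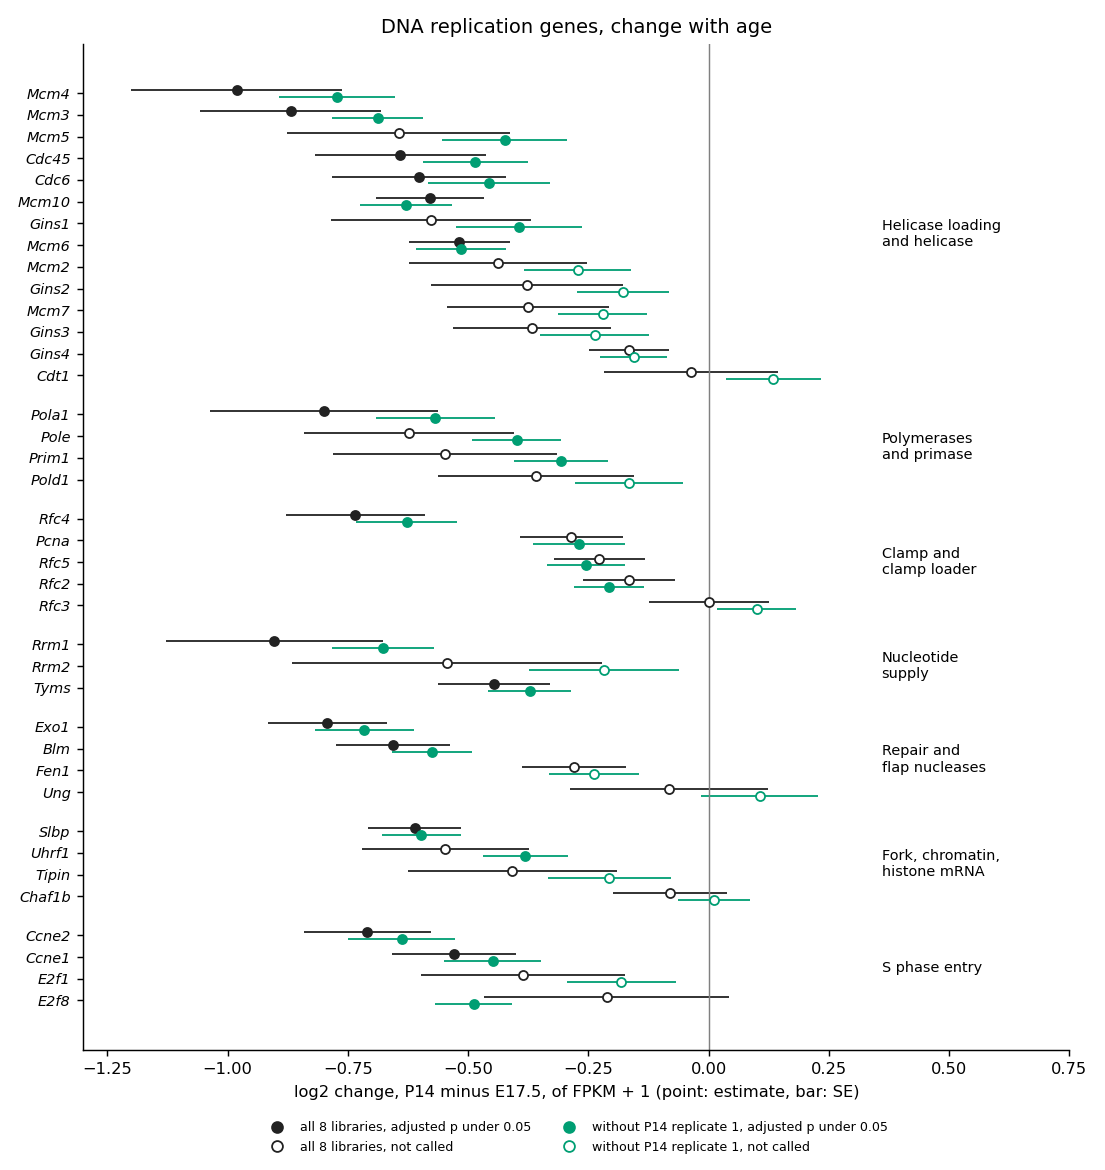
Log2 change in FPKM + 1 from E17.5 to P14 (horizontal axis, bars are SE) for the 38 members ordered by role, with all 8 libraries in black and without P14 replicate 1 in green, filled where the adjusted p was under 0.05. All black points but that of Rfc3 (0.001) lie left of 0, and Mcm4 lies furthest left at -0.98.

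Promoter sequence is shown for a few members that moved together or stayed apart, because E2F sites are the best known feature that such genes share. RefSeq promoter windows of GRCm38.p6, from 250 bases before to 50 bases after the annotated start, were matched by gene ID for 29 of the 38 members (Mcm7 and Uhrf1 have a pair of windows each). Both strands were searched for the E2F consensus written as TTTCCCGC, TTTCGCGC, TTTGCCGC or TTTGGCGC, for the cell cycle homology region TTTGAA, a mark of G2 and mitosis genes, and for the CCAAT box CCAAT, and E2F matches on opposite strands may overlap. An E2F match was found in 11 of the 29 members (37.9%), against 4.62% of the 10458 tested genes with a window and 2.6% of all 27025 genes with one. It was present in 4 of 12 members called lower (Cdc6, Mcm3, Mcm6 and Pola1) and in 7 of 17 not called (Cdt1, Gins3, Mcm5, Mcm7, Pold1, Rfc3 and Uhrf1). The called members Mcm4, Exo1 and Ccne2 had no window and are not among the 12. TTTGAA was found in 5 of 29 members (17.2%, against 14.03% of tested genes) and CCAAT in 18 of 29 (62.1%, against 42.3%). Among 11 mitosis markers with a window, 1 held an E2F match, 8 held TTTGAA and 10 held CCAAT. A match describes letters only, and binding was not measured.

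The 150 bases before the start are printed 5′ to 3′ along the gene, with matches in capitals (ATTGG is CCAAT, and GCGCCAAA and GCGGGAAA are E2F forms, read from the other strand). Mcm3 (chr1:20820313-20820462, minus strand) and Pola1 (chrX:93632156-93632305, minus strand) were the called members with the greatest falls among those with an E2F match. Rrm1 (chr7:102441545-102441694, plus strand) fell and has no E2F match, and Rfc3 (chr5:151651209-151651358, minus strand) has matches and a change nearest 0. Mcm6 (chr1:128359706-128359855, minus strand) was added after the matches were seen, for its 3 E2F matches, a pair of which overlap on opposite strands.
Mcm3: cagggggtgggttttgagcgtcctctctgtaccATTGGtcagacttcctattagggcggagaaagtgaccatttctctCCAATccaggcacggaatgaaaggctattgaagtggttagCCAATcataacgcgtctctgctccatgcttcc
Mcm6: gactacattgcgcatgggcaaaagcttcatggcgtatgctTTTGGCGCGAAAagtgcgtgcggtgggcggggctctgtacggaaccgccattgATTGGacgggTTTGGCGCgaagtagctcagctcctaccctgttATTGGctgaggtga
Pola1: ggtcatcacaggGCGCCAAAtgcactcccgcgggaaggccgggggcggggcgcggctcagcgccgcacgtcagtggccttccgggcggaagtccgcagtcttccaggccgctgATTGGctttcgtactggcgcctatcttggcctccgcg
Rrm1: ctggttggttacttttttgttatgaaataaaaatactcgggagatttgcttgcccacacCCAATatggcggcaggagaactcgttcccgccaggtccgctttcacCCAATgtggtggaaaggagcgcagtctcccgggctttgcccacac
Rfc3: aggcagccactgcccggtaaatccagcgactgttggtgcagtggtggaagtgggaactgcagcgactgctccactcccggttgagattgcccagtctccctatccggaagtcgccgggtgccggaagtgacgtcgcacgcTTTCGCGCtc
Both E2F matches of Mcm3 lie after its start, within 30 bases at chr1:20820266-20820295 on the minus strand, bases 18 to 47 when the first transcribed base is counted as 1.
Mcm3 after the start: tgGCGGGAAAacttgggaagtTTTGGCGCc
In Pola1 the match begins 138 bases before the start, in Mcm6 the matches begin 110, 106 and 47 bases before it, and in Rfc3 one begins 10 bases before it and the other at the start itself, beyond the printed bases.

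Of the 14 genes that load and form the helicase, 6 fell and the median log2 change was -0.55. The count was 8 and the median -0.41 without P14 replicate 1. For this and the roles below, the share of all tested genes called lower was 15.0%, and 26.9% without P14 replicate 1. Summed over the 14 genes, P14 libraries 1 to 4 stood at 50.2%, 78.3%, 65.4% and 82.2% of the E17.5 mean. For each of the 6 ring subunits, Mcm2 to Mcm7, every P14 library was below every E17.5 library, which held for 20.4% of all tested genes. Of the 6 subunits, 3 were called (4 without P14 replicate 1).

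Mcm4, a ring subunit at chr16:15441761-15455264 (GRCm39, minus strand), had the most negative log2(FPKM + 1) change of all members. The P14 mean was 51.3% of the E17.5 mean, a higher share than that of Exo1 (43.4%), which fell further with a pseudocount of 0.1 or with voom (log2 changes of -1.16 and -1.32, against -1.02 and -1.12 for Mcm4). Its FPKM was 35.6, 38.1, 39.1 and 37.02 at E17.5 and 11.6, 24.7, 17.1 and 23.5 at P14, in replicate order. All P14 libraries were below the fetal ones, with P14 replicate 1 lowest. The mean fell from 37.45 ± 1.51 to 19.2 ± 6.065 FPKM (SD, n = 4 each), a log2 change of -0.98 ± 0.22 (SE, limma's adjusted p = 0.0164), and of -0.77 ± 0.12 without P14 replicate 1 (adjusted p = 0.00114). The call was lost without E17.5 replicate 3 (limma's adjusted p = 0.054).

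Mcm3 (chr1:20873188-20890536 on GRCm39, minus strand), the gene with E2F letters just past its start, was at 44.7, 44.8, 45.3 and 42.4 FPKM in the fetal libraries and at 16, 27.9, 23.3 and 30.6 in the P14 libraries. The 4 fetal values lay within 3 FPKM of each other and the P14 values were all lower and more scattered. The log2 change was -0.87 ± 0.19 (SE, limma's adjusted p = 0.0145), and -0.69 ± 0.095 without P14 replicate 1. Mcm6 read 38.2, 37.7, 40.6 and 42.7 FPKM at E17.5 and 27.2, 28.2, 24.1 and 30.7 at P14. Every P14 library was again below every fetal one, but P14 replicate 1 lay among the other P14 libraries, not below them as for Mcm3 and Mcm4. The log2 change of Mcm6 was -0.52 ± 0.10 (SE, limma's adjusted p = 0.0109), and -0.51 ± 0.094 without that library.

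The other subunits of the ring were not called with all 8 libraries. Mcm5 read 32.1, 29.7, 25.7 and 25.1 FPKM at E17.5 and 10.75, 20.8, 17.2 and 24.4 at P14, and was called only without P14 replicate 1 (-0.42 ± 0.13, limma's adjusted p = 0.02575). For Mcm2 the fetal values were 31.97, 30.9, 29.9 and 31.01 FPKM and the P14 values 15.7, 28.2, 20.6 and 28.2. For Mcm7 they were 33.97, 31.3, 28.7 and 29.1 FPKM before birth and 16.7, 27.3, 23.4 and 28.25 FPKM after it. None of the 3 genes overlapped between the ages, but P14 replicates 2 and 4 of Mcm2 and of Mcm7 came within 3 FPKM of the lowest fetal library, and the log2 changes of -0.44 and -0.38 had limma adjusted p-values of 0.120 and 0.138 (0.0730 and 0.0780 without P14 replicate 1).

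The 6 subunits enter the ring in equal numbers, and their transcripts lay close together at both ages. The highest subunit was 1.4 to 1.76 times the lowest in FPKM at E17.5 and 1.31 to 1.41 times in P14 replicates 2, 3 and 4. Mcm3 led in 3 of 4 fetal libraries and Mcm6 in every P14 library. In P14 replicate 1 the ratio was 2.53, with Mcm6 at 27.2 FPKM and Mcm5 at 10.8.

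**Figure D2:**
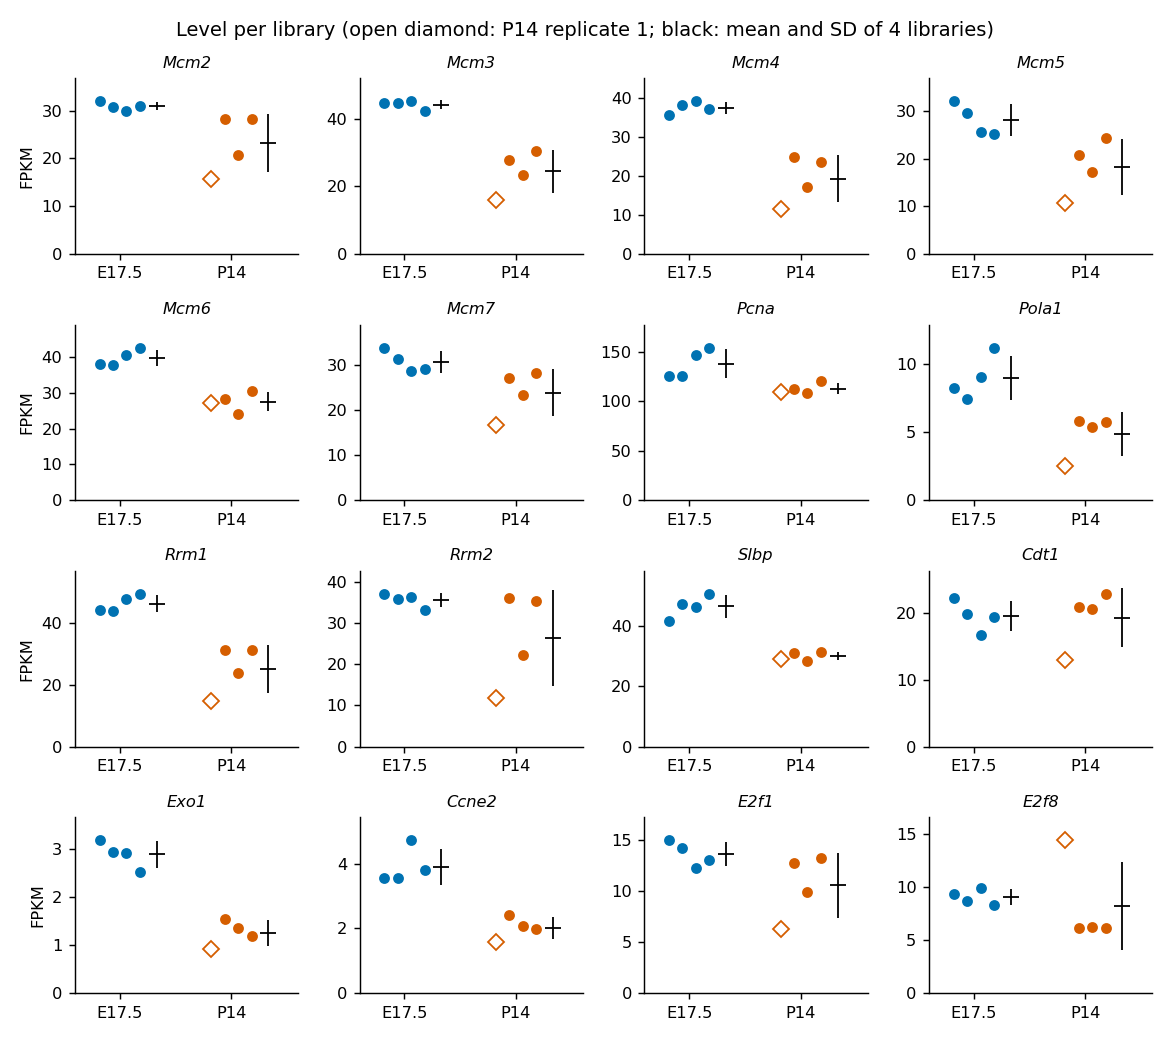
FPKM per library (vertical axis) for 16 members at E17.5 and P14, with an open diamond for P14 replicate 1, circles for the other libraries and the mean and SD in black. The diamond is the lowest P14 point for Mcm4 (11.6) and Rrm2 (11.7), lies among the other P14 points for Pcna (108.8) and lies above every other point for E2f8 (14.4).

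Of the loading factors, Cdc6 fell and Cdt1 was not called. Cdc6, the ATPase that brings the ring to origins, read 4.26, 3.91, 4.03 and 4.08 FPKM at E17.5 and 1.46, 2.99, 1.99 and 3.235 at P14, with no overlap. It fell by 0.60 on the log2 scale (SE 0.18, limma's adjusted p = 0.0444), a call lost without any 1 fetal library or without P14 replicate 3 (adjusted p = 0.0925 to 0.111) and also with a pseudocount of 0.1, no filter, TPM or median-of-ratios scaling or voom (0.0503 to 0.0892). Cdt1, its partner in loading, whose protein is destroyed once S phase begins, read 22.2, 19.8, 16.7 and 19.3 FPKM at E17.5 and 12.98, 20.95, 20.6 and 22.85 at P14. P14 replicates 2, 3 and 4 lay within or above the fetal range and replicate 1 below it. The log2 change of Cdt1 was -0.036 ± 0.18 (SE, limma's adjusted p = 0.900), and 0.14 ± 0.098 without P14 replicate 1 (0.283).

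Of the factors that turn the ring into a moving helicase, Mcm10 and Cdc45 fell. Mcm10, which triggers unwinding, was at 5.93, 5.70, 5.605 and 6.63 FPKM in the fetus and at 4.17, 3.18, 3.38 and 3.97 at P14. Cdc45, the partner that stays on the moving helicase, was at 6.36, 6.002, 6.55 and 5.055 FPKM in the fetus and 2.23, 4.54, 3.53 and 3.91 FPKM in the pups. Neither gene overlapped between the ages, and P14 replicate 1 was the highest P14 library for Mcm10 and the lowest for Cdc45. The log2 changes were -0.58 ± 0.11 for Mcm10 and -0.64 ± 0.18 for Cdc45 (SE, limma's adjusted p = 0.00952 and 0.0337). The Cdc45 call was lost without any 1 fetal library or without P14 replicate 3 or 4 (0.0548 to 0.0984), and with no filter, TPM scaling or voom (0.050, above the threshold before rounding, to 0.0699).

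The 4 GINS genes encode the complex that joins CDC45 on the ring, and they were not called with all 8 libraries. Gins1 read 7.86, 6.25, 6.51 and 7.61 FPKM at E17.5 and 2.67, 6.43, 4.425 and 4.66 at P14, and P14 replicate 2 lay above the lowest fetal library. Its log2 change was -0.58 ± 0.21 (SE, limma's adjusted p = 0.0771), and it passed without P14 replicate 1 (-0.39, 0.0349) and without P14 replicate 2 (-0.73, 0.0321). Gins2 read 18.98, 17.8, 17.99 and 16.1 FPKM at E17.5, then 8.52, 15.7, 13.7 and 17.4 at P14, and Gins3 read 5.06, 4.965, 4.48 and 3.77 FPKM at E17.5, then 2.28, 3.23, 3.89 and 4.03 at P14. In both genes P14 replicate 1 was lowest and the ages overlapped. Gins4 stood at 17.54, 15.8, 17.3 and 17.6 FPKM at E17.5 and 14.8, 15.4, 14.6 and 15.55 at P14, where all P14 libraries were below the fetal ones by a narrow margin. The adjusted p-values of Gins2, Gins3 and Gins4 were 0.199, 0.136 and 0.180 by limma, at log2 changes of -0.38, -0.37 and -0.17.

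Among the 4 polymerase and primase genes, Pola1 fell and the other 3 were not called with all 8 libraries. The median log2 change was -0.59. When P14 replicate 1 was left out, 3 of the 4 were called and the median was -0.35. Their summed FPKM in P14 replicates 1 to 4 was 37.98%, 82.2%, 70.4% and 80.8% of the E17.5 mean.

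Pola1, the catalytic subunit of the polymerase that lays down each primer, lies at chrX:92348372-92675993 (GRCm39, minus strand). Its values were 8.21, 7.44, 9.02 and 11.2 FPKM at E17.5 and 2.51, 5.84, 5.41 and 5.735 at P14. P14 replicates 2, 3 and 4 were close together below the fetal range, and P14 replicate 1 was far below them. The log2 change was -0.80 ± 0.24 (SE, limma's adjusted p = 0.0424) with all libraries and -0.57 ± 0.12 (0.00583) without P14 replicate 1. The call was lost without any 1 fetal library or without P14 replicate 3 or 4 (0.0586 to 0.114), and with no filter, TPM or median-of-ratios scaling or voom (0.0532 to 0.0867). Pola1 also overlaps loci on the other strand, which makes its values uncertain.

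Prim1, the primase subunit that makes the RNA primer, had the highest level of the 4, at 20.2, 19.15, 22.4 and 22.7 FPKM at E17.5 and 8.14, 17.99, 14.7 and 18 at P14. Pole, the leading strand polymerase, was at 6.75, 5.91, 6.78 and 7.39 FPKM in the fetal libraries and 2.13, 4.84, 4.45 and 5.24 at P14. Neither gene overlapped between the ages, and both were called only without P14 replicate 1, at log2 changes of -0.31 and -0.40 (limma's adjusted p = 0.0297 and 0.00791, against 0.121 and 0.07175 with it). Pold1, the lagging strand polymerase, read 13.5, 13.2, 9.95 and 11.6 FPKM at E17.5 and 5.775, 11.5, 9.83 and 10.5 at P14. Its ages overlapped, and its adjusted p was 0.2265 with P14 replicate 1 and 0.249 without it.

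The clamp and its loader had the smallest median log2 change of the 7 roles, -0.23. Only Rfc4 fell with all 8 libraries among the 5 genes, and P14 libraries 1 to 4 summed to 80.3%, 81.6%, 80.9% and 87.6% of the E17.5 mean. Without P14 replicate 1, 4 of the 5 were called and the median was -0.25. These genes were also the nearest to equal between P14 replicate 1 and the rest, with a median ratio of 0.956.

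Pcna, the clamp, had the highest level of all members, at 126, 125, 146.5 and 154 FPKM at E17.5 and 109, 113, 108 and 120.4 at P14. The highest P14 library was just below the lowest fetal one. The change was -0.28 ± 0.11 on the log2 scale (SE, limma's adjusted p = 0.0846), and -0.27 ± 0.096 without P14 replicate 1 (0.0459). Rfc4 at chr16:22932698-22946480 (GRCm39, minus strand) was at 20.1, 16.3, 16.6 and 16.6 FPKM in the fetal libraries and 7.80, 10.8, 12.3 and 9.63 FPKM at P14. The fetal libraries were all above the P14 ones, and the log2 change was -0.73 ± 0.14 (SE, limma's adjusted p = 0.00989). Rfc4 overlaps a locus on the other strand.

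The other small subunits of the loader were not called with all 8 libraries. Rfc2 read 34.4, 34.3, 36.2 and 39.6 FPKM at E17.5 and 35.1, 31.25, 30.4 and 31.8 at P14, and only P14 replicate 1 lay within the fetal range. Rfc5 was at 21.1, 21.5, 20.15 and 20.8 FPKM before birth and 18.8, 15.7, 17.3 and 19.3 FPKM after it, with no overlap. Both were called only without P14 replicate 1 (log2 changes of -0.21 and -0.26, limma's adjusted p = 0.0450 and 0.0291), and Rfc5 also under TPM scaling (0.0460). Rfc3, shown above for its E2F letters at the start, read 14.8, 15.5, 14.3 and 15.55 FPKM at E17.5 and 12.1, 15.04, 15.5 and 18.1 at P14. P14 replicate 1 was below and replicate 4 above the fetal range, and the log2 change was 0.001 ± 0.13 (SE, limma's adjusted p = 0.995), or -0.19 under TPM scaling. RFC2 to RFC5 are found together in the loader, yet Rfc2 was 2.21 to 2.55 times the lowest of the 4 in FPKM at E17.5 and 2.46 to 4.5 times at P14, where Rfc4 was the lowest in every library and Rfc3 had been the lowest in every fetal one.

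Of the 3 genes of nucleotide supply, Rrm1 and Tyms fell and Rrm2 was not called. The median log2 change was -0.54, or -0.37 without P14 replicate 1, where the same 2 genes were called. P14 libraries 1 to 4 summed to 34.1%, 81.0%, 57.9% and 80.7% of the E17.5 mean.

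Rrm1, the large subunit of ribonucleotide reductase at chr7:102090902-102118978 (GRCm39, plus strand), read 44.2, 43.75, 47.9 and 49.4 FPKM at E17.5 and 14.8, 31.2, 23.9 and 31.1 at P14. All P14 libraries were below all fetal ones, and the log2 change was -0.90 ± 0.23 (SE, limma's adjusted p = 0.0240), or -0.68 ± 0.11 (0.00118) without P14 replicate 1. The call was lost without any 1 fetal library or without P14 replicate 3 (0.0547 to 0.0713), with no filter (0.0520) and with voom (0.0511). Its promoter window, printed above, holds CCAAT boxes and no E2F match.

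Rrm2, the small subunit, made in S phase, read 37.1, 36.02, 36.4 and 33.2 FPKM at E17.5 and 11.7, 36.1, 22.3 and 35.3 at P14. P14 replicates 2 and 4 lay within the fetal range and replicates 1 and 3 far below it. With an SD of 11.6 FPKM over the P14 libraries, the log2 change of -0.54 ± 0.32 had a limma adjusted p of 0.246 (0.277 without P14 replicate 1). Tyms, which makes thymidylate, was at 5.70, 6.65, 6.53 and 6.17 FPKM at E17.5, then 3.57, 4.20, 4.86 and 4.77 at P14, with no overlap. It fell by 0.45 on the log2 scale (SE 0.12, limma's adjusted p = 0.0270), a call lost without E17.5 replicate 2, 3 or 4 or P14 replicate 2 (0.0572 to 0.0851), with no filter (0.0559) and with voom (0.0543).

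**Figure D3:**
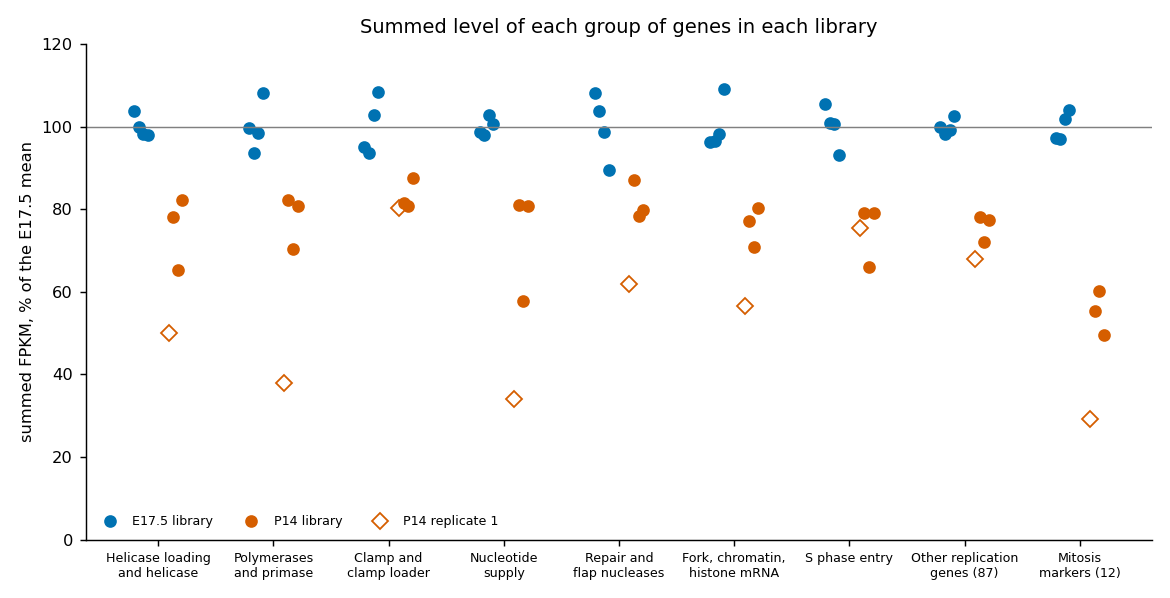
Summed FPKM per library as a percentage of the E17.5 mean (vertical axis) for the 7 roles, for 87 other replication genes and for 12 mitosis markers. P14 replicate 1 ranges from 34.1% (nucleotide supply) to 80.3% (clamp and loader) among the roles, and the mitosis markers lie below every role in P14 replicates 1, 2 and 4 (29.2%, 55.3% and 49.6%).

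The nucleases and repair enzymes split in pairs, with Exo1 and Blm lower at P14 and Fen1 and Ung not called. The median log2 change was -0.47, or -0.41 without P14 replicate 1, with the same 2 genes called. Exo1, an exonuclease of mismatch repair and of broken ends at chr1:175708334-175738962 (GRCm39, plus strand), read 3.18, 2.94, 2.92 and 2.52 FPKM at E17.5 and 0.910, 1.55, 1.36 and 1.19 at P14. The mean at P14 was 43.4% of that at E17.5, the lowest such share among the members, and P14 replicate 1 was the only library in which any member was under 1 FPKM. The log2 change was -0.79 ± 0.12 (SE, limma's adjusted p = 0.00422), which the added 1 in the log makes smaller than the true change for so low a gene.

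Blm, a helicase that undoes crossed strands, read 4.11, 4.08, 3.91 and 4.43 FPKM at E17.5, then 1.75, 2.26, 2.51 and 2.57 at P14, with no overlap and a log2 change of -0.66 ± 0.12 (SE, limma's adjusted p = 0.00708). Fen1, which trims the flaps of Okazaki fragments and had the highest level of the 4, read 18.6, 17.3, 15.4 and 14.65 FPKM at E17.5 and 12.2, 14.65, 13.6 and 13.1 at P14. Its P14 replicate 2 was level with the lowest fetal library. Ung, which removes uracil from DNA, was at 5.90, 6.17, 6.76 and 4.74 FPKM in the fetus and 3.38, 7.11, 5.57 and 6.53 FPKM in the pups, and P14 replicate 2 was above every fetal library. The log2 changes were -0.28 ± 0.11 for Fen1 and -0.082 ± 0.21 for Ung (SE, limma's adjusted p = 0.0946 and 0.793), and that of Ung was 0.11 without P14 replicate 1. Blm, Fen1 and Ung overlap a locus on the other strand, and Exo1 overlaps a locus on the same strand.

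Slbp was the only called gene among the 4 that protect the fork, serve the new chromatin or handle histone mRNA. The median log2 change of the 4 was -0.48, or -0.29 without P14 replicate 1, where Slbp and Uhrf1 were called. Slbp encodes the protein that binds the stem-loop of replication-dependent histone mRNA, and lies at chr5:33797399-33809918 (GRCm39, minus strand). It read 41.6, 47.15, 46.3 and 50.5 FPKM at E17.5 and 29.1, 31.1, 28.5 and 31.3 at P14. The P14 libraries lay within 3 FPKM of each other, replicate 1 included, and more than 10 FPKM below the fetal ones. The mean fell from 46.4 ± 3.675 to 29.98 ± 1.405 FPKM (SD, n = 4 each), a log2 change of -0.61 ± 0.097 (SE, limma's adjusted p = 0.004465).

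Uhrf1, which brings the maintenance methylase DNMT1 to new DNA, read 29.4, 27.99, 27.98 and 29.2 FPKM at E17.5 and 13.4, 23.6, 18.8 and 23.1 at P14. No P14 library reached the fetal range, and the adjusted p was 0.0526 by limma with all 8 libraries, 0.00783 without P14 replicate 1, 0.0442 without P14 replicate 2 and 0.0491 with a filter at 5 FPKM. Tipin, part of the complex that steadies a stalled fork, read 21.5, 18.8, 20.8 and 26.97 FPKM in the fetal libraries and 10.3, 18.3, 17.03 and 21.35 at P14. Chaf1b, a subunit of the histone chaperone CAF-1, read 11.9, 10.75, 11.4 and 11.75 FPKM before birth and 8.675, 10.8, 12.4 and 11.5 FPKM after it. Both overlapped between the ages, with P14 replicate 1 lowest in each, and log2 changes of -0.41 and -0.081 (limma's adjusted p = 0.201 and 0.641). Without P14 replicate 1 the change of Chaf1b was 0.012.

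Both cyclin E genes fell, while neither E2F gene was called with all 8 libraries. The 4 genes of S phase entry had a median log2 change of -0.46, or -0.47 without P14 replicate 1, where 3 were called. Ccne2 (chr4:11190489-11204779 on GRCm39, plus strand) read 3.55, 3.55, 4.73 and 3.82 FPKM at E17.5 and 1.58, 2.41, 2.06 and 1.97 at P14. Ccne1 was at 11.1, 10.7, 10.2 and 9.14 FPKM in the fetus and 5.58, 7.85, 6.25 and 7.75 FPKM in the pups. Neither overlapped, and the log2 changes were -0.71 ± 0.13 for Ccne2 and -0.53 ± 0.13 for Ccne1 (SE, limma's adjusted p = 0.00800 and 0.0214). The call of Ccne1 was lost without E17.5 replicate 1, 2 or 3 or P14 replicate 3 (0.0593 to 0.0635) and with voom (0.050, above the threshold before rounding). Ccne2 overlaps loci on the other strand.

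E2f1, an activator of S phase genes and the highest of the 4, read 14.97, 14.25, 12.3 and 13.1 FPKM at E17.5 and 6.30, 12.8, 9.88 and 13.3 at P14. P14 replicates 2 and 4 were within the fetal range and replicates 1 and 3 below it. The log2 change was -0.39 ± 0.21 (SE, limma's adjusted p = 0.214). E2f8, an atypical E2F that represses the same genes, read 9.35, 8.66, 9.95 and 8.33 FPKM at E17.5 and 14.4, 6.13, 6.21 and 6.17 at P14. P14 replicates 2, 3 and 4 lay close together below the fetal range, and P14 replicate 1 was above it. The log2 change of E2f8 was -0.21 ± 0.25 (SE, limma's adjusted p = 0.569) with all 8 libraries and -0.49 ± 0.080 (0.001465) without P14 replicate 1. E2f8 overlaps loci on the other strand.

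P14 replicate 1 was the lowest P14 library for 30 of the 38 members and the highest for 3, E2f8, Rfc2 and Mcm10. Over all 14044 tested genes this library was the lowest for 5745 and the highest for 6252. The ratio of its FPKM to the mean of P14 replicates 2 to 4 had a median of 0.612 over the members, from 0.376 for Rrm2 to 2.34 for E2f8. It was at least 1.5-fold below that mean for 22 members and at least 1.5-fold above it for 1, E2f8, against 26.9% and 26.1% of all tested genes. The polymerases (median 0.462) and nucleotide supply (0.514) had the lowest ratios, while Pcna (0.956), Slbp (0.960), Mcm6 (0.984), Gins4 (0.9735), Rfc5 (1.08), Rfc2 (1.13), Mcm10 (1.19) and Fen1 (0.8845) were within 1.2-fold of 1. These FPKM places and ratios rest on the authors' scaling, which set the library's effective size at 0.78 of its assigned reads. In recovered reads, P14 replicates 1 to 4 had 747, 865, 864 and 923 for Rfc2 and 241, 239, 261 and 313 for Mcm10. They had 777, 1080, 1018 and 1141 for Slbp, 1922, 2590, 2557 and 2902 for Pcna, and 802, 443, 461 and 468 for E2f8. By reads Rfc2 was lowest and Mcm10 not highest, while E2f8 stayed highest.

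Over all tested genes the median ratio was 1.02. Median ratios were 0.305 for smooth muscle, 0.370 for fibroblast and 0.340 for enteric neuron and glia markers, 0.525 for mitosis markers and 13.4 for pan-epithelial markers. The 6 tested crypt markers went both ways, with ratios of 0.284 for Smoc2, 0.669 for Slc12a2 and 0.796 for Cdca7, and of 1.98 for Axin2, 2.56 for Olfm4 and 3.59 for Sox9 (median 1.39). The crypt markers below the filter, Lgr5, Ascl2, Rnf43 and Myb, were all highest at P14 in replicate 1 (3.86, 3.76, 6.54 and 3.44 FPKM). With 1 library on one side this is a description, and it has no replicate check.

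**Figure D4:**
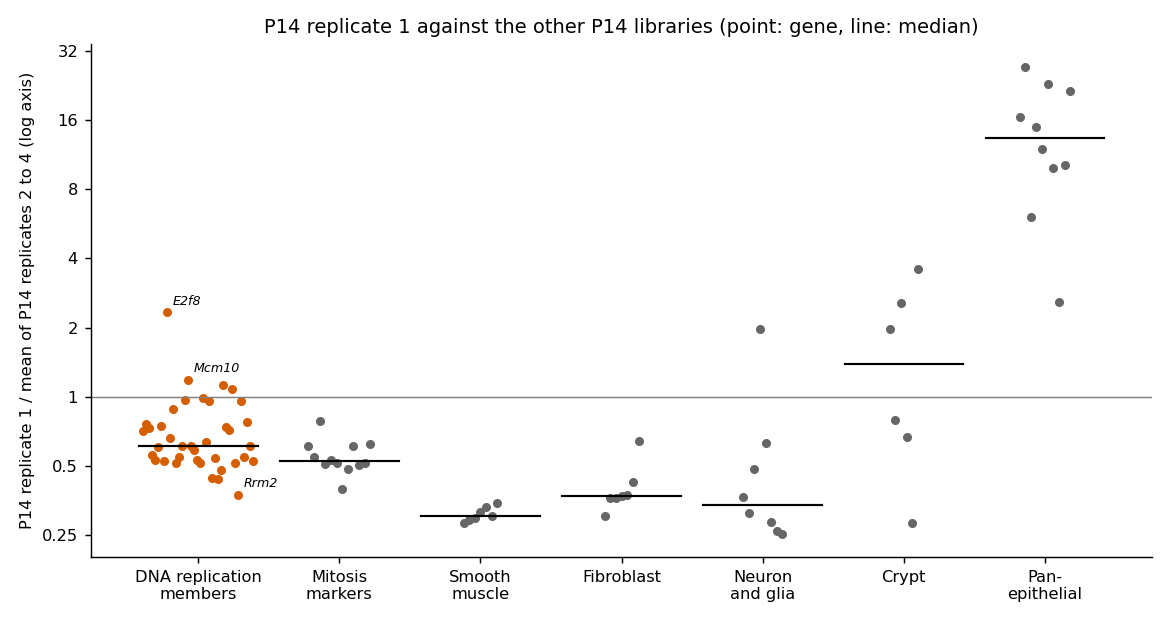
FPKM of P14 replicate 1 divided by the mean of P14 replicates 2 to 4 (logarithmic vertical axis) for the members and for marker lists, 1 point per gene and a line at the median. The members' median (0.612) lies above those of smooth muscle (0.305) and fibroblast (0.370) and below that over all tested genes (1.02), and the tested crypt markers lie on both sides of 1.

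Markers of other cell types also differed between the ages. Of all tested genes 9.72% were called higher and 15.0% lower (22.6% and 26.9% without P14 replicate 1). Pan-epithelial markers, with 12 of 12 above 0 in every library, had 9 of 10 tested genes called higher at P14 (9 without P14 replicate 1). That count was 2, 2, 0 and 2 without E17.5 replicates 1 to 4 in turn. It was 10, 1 and 8 without P14 replicates 2, 3 and 4, and 2 with voom on recovered reads. Crypt markers, from the dividing part of the epithelium, summed to 132 to 148 FPKM at E17.5 and 203 to 289 at P14, with 2 higher and 1 lower of 6 tested (3 and 1 without P14 replicate 1) and Ascl2 at 0 in 1 library. At E17.5 most of that sum came from Smoc2, Cdca7 and Slc12a2 (means of 65.9, 39.2 and 32.2 FPKM), and these 3 were lowest at P14 in replicate 1, where Olfm4, Axin2 and Sox9 were highest. With P14 replicate 1 left out, 7 of 7 tested smooth muscle markers were called higher, with a median log2 change of 1.13. With it 0 were called (2 higher at an unadjusted p under 0.05 by limma and 1 by voom), the median was 0.72, and the P14 sums were 55.7%, 216.4%, 153.6% and 193.5% of the E17.5 mean. Of 8 enteric neuron and glia markers 2 were called higher (5 without P14 replicate 1), and of 7 fibroblast markers 1 was higher and 1 lower (3 and 1 without it). The 2 neuron and glia calls were lost without any 1 fetal library or P14 replicate 2, 3 or 4. They were also lost with TPM scaling and with voom on recovered reads. Erythroid markers, which include the globins of red cell precursors, summed to 1649 to 2404 FPKM at E17.5 and 339 to 569 at P14, and 5 of 5 tested were lower with and without P14 replicate 1, while Slc4a1 and Epb42 were under 1 FPKM throughout. B and plasma cell markers summed to 5.33 to 7.04 FPKM at E17.5 and 17.46 to 131.5 at P14, with 3 of 4 tested higher in both fits. T and NK cell markers summed to 6.97 to 9.61 FPKM at E17.5 and to 29.49, 3.52, 17.02 and 34.61 in P14 replicates 1 to 4. Of these 8 markers 3 were tested, and 0 were called in either fit. The part of these cells in the members' changes was not tested. In P14 replicate 2, the P14 library with the lowest epithelial sum, the members summed to 79.9% of the E17.5 mean, against 58.4%, 70.3% and 83.0% in replicates 1, 3 and 4.

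The rest of the replication pathway was read from 87 further genes, of which 86 were tested and Chtf8 is listed at 0. Of these, 31 fell and 0 rose by limma, with a median log2 change of -0.37, and 1, E2f2, was higher at an unadjusted p under 0.05 by both limma and voom, with 0 higher by voom after adjustment. Without P14 replicate 1 the counts were 48 lower and 0 higher (1 at an unadjusted p under 0.05, and 1 by voom after adjustment), with a median of -0.29. Of all tested genes 15.0% were called lower with all 8 libraries and 26.9% without P14 replicate 1. The count of these genes called lower also fell to 19 without E17.5 replicate 3 and 20 without E17.5 replicate 4. Over all tested genes it fell from 2108 to 1118 and 1278 in the same fits. E2f2 was called higher without P14 replicate 2 (limma's adjusted p = 0.045).

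Of 10 other genes that assemble new chromatin 8 were called, with or without P14 replicate 1, among them the histone chaperone genes Asf1b (-0.95) and Chaf1a (-0.77), the large CAF-1 subunit, whose partner Chaf1b was not called. Of 13 other S phase repair and checkpoint genes 8 were called (11 without P14 replicate 1), with Fanci at -0.77 and Chek1 at -0.88 (a call lost without E17.5 replicate 4, limma's adjusted p = 0.0518). Of 15 other licensing and firing genes 5 were called (6 without P14 replicate 1), with Ticrr, which fires origins, from 3.57 ± 0.16 to 1.08 ± 0.237 FPKM (SD, n = 4 each, log2 change -1.14) and the kinase gene Cdc7 at -0.96, a call lost without any 1 fetal library or P14 replicate 3 or 4 (0.0513 to 0.107).

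Of 17 other clamp, fork and Okazaki fragment genes 4 were called (9 without P14 replicate 1), and the topoisomerase genes Top2a and Top1, which relieve twisting, had the greatest falls (-1.45 and -1.06). Of 9 other nucleotide supply genes 2 were called in both fits, Dctd (-1.04) and Samhd1 (-0.59), the latter a gene for an enzyme that breaks nucleotides down. Of 8 other polymerase and primase subunits 2 were called (3 without P14 replicate 1), Prim2 (-0.65, lost without any 1 fetal library or P14 replicate 3, limma's adjusted p = 0.0649 to 0.0863) and Pold3 (-0.40, lost without E17.5 replicate 3, 0.0573), and the median of that list was 0.02 (-0.06 without P14 replicate 1). Of 14 other E2F, pocket protein and S phase kinase genes 2 were called (9 without P14 replicate 1), Ccna2 (-0.94, lost without any 1 fetal library or P14 replicate 3 or 4, 0.0502 to 0.0843) and Tfdp1 (-0.51, lost without any 1 fetal library or P14 replicate 3, 0.0581 to 0.0898). The share of all tested genes called lower was 15.0%, and 26.9% without P14 replicate 1. The 2 of 14 with all 8 libraries, and the 2 of 9 without P14 replicate 1, were not above it.

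Genes of mitosis, the step after S phase, gave a larger median change than the replication members. Of 12 mitosis markers 11 were lower at P14, or 12 without P14 replicate 1, with a median log2 change of -0.998 (-0.81 without it), against -0.52 (-0.38) for the members. Ccnb1, which encodes cyclin B1, went from 40.1 ± 4.73 to 13.04 ± 4.09 FPKM (SD, n = 4 each). Summed mitosis markers stood at 29.2%, 55.3%, 60.3% and 49.6% of the E17.5 mean in P14 replicates 1 to 4, below the members' sums in each library. This compares medians and sums of chosen lists, and the difference between the lists was not tested.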

How the data were processed

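RNA-seq was compared between 4 E17.5 and 4 P14 libraries, grouped and numbered by their labels. The authors deposited 1 FPKM value per gene and library. Per the submitters' processing notes, GRCm39 was the build, and the tools were featureCounts, HISAT2, fastp, CASAVA and DESeq2 1.20.0, with no role stated. The strand setting of the counting and the tool that computed FPKM are not given in the sources used here, so the values of the 10 members that overlap a locus on the other strand are uncertain. In all, 16 members overlap another locus. E2f1, Exo1, Gins1, Pold1, Pole and Tipin overlap a locus on the same strand only, and their values may be uncertain whatever the strand setting.

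Reads were recovered from FPKM times gene length, which came out whole in units of a library's smallest step for 100% of values, within 1e-06. Genes at 1 FPKM or more in at least 4 of 8 libraries were tested with limma 3.58.1 (R 4.3.3, statmod 1.5.0) on log2(FPKM + 1), with trend and robust moderation, two-sided, and Benjamini-Hochberg adjustment over 14044 genes, called under 0.05. All 38 members passed this filter, and all except Exo1 were at 1 FPKM or more in every library. The fit was tested on simulated data. Alternatives were another pseudocount, other filters, TPM and median-of-ratios scaling, plain limma, voom on recovered reads, a replicate block and each library left out. Voom with the authors' library sizes, and scalings with P14 replicate 1 left out, were added after seeing the data.

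All members are named. Values in every library are given by role for the called member with the largest change, the highest member, members not called and members against their role's direction, and the other called members were added. Other lists give counts and up to 2 called genes. Members and lists were chosen with earlier results of these data known. Promoters and their coordinates are RefSeq's on GRCm38.p6, and were not mixed with the table's GRCm39 positions.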

Additional observations from a re-analysis of the deposited data

Results flagged for a closer look

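Of 76 groups of 4 values, 1 per member and age, 4 had a value far from the other 3, where chance gives about 1 in 20. In P14 replicate 1, E2f8 was at 14.4 FPKM, above the other P14 libraries, and Pola1 at 2.51 FPKM, below them. Among the fetal libraries, Gins4 was at 15.8 FPKM in E17.5 replicate 2, below the rest, and Rfc4 at 20.1 FPKM in E17.5 replicate 1, above the rest.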

How the results depend on the processing

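Of the 38 members, 34 had a log2 change below 0 under every alternative tried. The 4 others turned in some fits and were called in none. Cdt1 was at 0.026 without E17.5 replicate 1, 0.135 without P14 replicate 1 and, without it, 0.07 with TPM, 0.175 with median-of-ratios scaling and 0.151 with voom. In the same fits without P14 replicate 1, Ung was at 0.106, 0.05, 0.143 and 0.139, and Chaf1b at 0.012 on FPKM, 0.051 with median-of-ratios scaling and 0.02 with voom. Rfc3, at 0.001 with all libraries, was at -0.187 with TPM, -0.092 with voom, and between -0.084 and -0.005 without E17.5 replicate 1 or 3 (-0.022) or P14 replicate 3 (-0.013) or 4. With each library left out in turn the changes ran from -0.122 to 0.135 for Cdt1, -0.145 to 0.012 for Chaf1b, -0.084 to 0.1 for Rfc3 and -0.19 to 0.106 for Ung. The cause was not tested.

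Members called lower numbered 15, and 9 with voom on recovered reads, 8 with the replicate block, 28 with TPM, 23 with voom and 20 with median-of-ratios scaling without P14 replicate 1, and 8 to 24 with each library left out. Over all genes 2108 were lower and 1365 higher, against 2678 and 899 with TPM. Higher calls with voom numbered 894. Without P14 replicate 1 lower and higher calls were 4387 and 2741 with TPM, 3388 and 3515 with median-of-ratios scaling and 3795 and 3227 with voom. With each library left out they ran from 1118 to 3782 and from 617 to 3176, and the no-filter and stricter-filter fits stayed within 1.5-fold.

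The replicate block left 1049 lower and 695 higher calls over all genes. Libraries of the same number did not deviate together (correlations across genes of -0.0641 to 0.00947 over 4 pairs), and 0 of the P14 libraries matched its own number best, so the numbers were not taken as pairs. Reads limit the lowest member counts, 60 in a library for Gins1 and 75 for Exo1, and P14 replicate 1 widens the spread of most members.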
